A study of Rattus norvegicus with 10 samples.

Results

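The ATP-binding cassette (ABC) transporters of the rat liver were examined on the arrays, across the 7 subfamilies a to g that the letter after "Abc" in the gene symbol names. Members were all probes, control spots left out, whose symbol began with Abca, Abcb, Abcc, Abcd, Abce, Abcf or Abcg followed by a digit. This rule found 48 probes for 40 genes, out of 40945 probes with a value on every array and 13426 genes with a symbol. Subfamily a held 7 genes, b 9, c 10, d 3, e 1, f 2 and g 8. A further 18 ABC symbols of the RefSeq gene table were matched to no probe and were not analysed here.

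Liver RNA of male Wistar rats was measured 24 h after total-body irradiation (TBI) with 1 Agilent one-colour array per rat. The 3 control rats were unirradiated (0 Gy) normal controls, and whether the control and TBI rats on these arrays were given water, the solvent of MASM, is not stated in the labels. A heatmap in the paper captions the arrays of the control and TBI groups the other way round from the labels, which were used here. An exchange would turn the sign of each TBI against control value and swap the other 2 comparisons. The 3 TBI rats received 6.5 Gy from a 60Co source according to the labels, while the text of the paper gives a lower dose. The 4 MASM + TBI rats received the same radiation after MASM, a derivative of the plant alkaloid matrine, by mouth at 30 mg/kg a day for 3 days. No rat on these arrays had MASM without irradiation, so an action of MASM in unirradiated liver was not measured. Whole liver tissue was used, in which fewer cells of a type and less RNA per cell cannot be told apart.

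ABC transporters bind and hydrolyse ATP to move substrates across membranes. In hepatocytes, pumps of the canalicular membrane, which faces the bile, export bile salts, phosphatidylcholine, sterols, conjugates and drugs, while pumps of the basolateral membrane return conjugates to the blood. Other members work in peroxisomes and mitochondria or unload cholesterol onto lipoproteins, and subfamilies e and f have no membrane-spanning part and act in translation.

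The slides divided the groups unequally, since all 3 TBI arrays lay on a slide of their own, and TBI and slide therefore cannot be told apart. The 3 control arrays shared a slide with MASM + TBI rat 3, and the other MASM + TBI arrays lay on a slide of their own. The share of spots well above background was 57.2% to 59.9% on control arrays, 64.1% to 70.1% on TBI arrays and 56.2% to 60.2% on MASM + TBI arrays. The lowest log2 signal that counted as well above background was 3.71 to 4.0 on control arrays, 2.54 to 3.16 on TBI arrays and 3.68 to 4.09 on MASM + TBI arrays. The part of this lower limit in differences of dim probes was not tested. The summed linear signal of 6 hepatocyte markers was 1390700 to 1426000 in control rats, 1314400 to 1388500 in TBI rats and 1374900 to 1435600 in MASM + TBI rats. That of 4 markers of T lymphocytes, cells known to be sensitive to radiation, was 521 to 695 in control rats, 182 to 365 in TBI rats and 184 to 376 in MASM + TBI rats. The arrays labelled control were thus the highest in these lymphocyte markers. Of the ABC genes, 29 were well above background on all 10 arrays by their brightest probe, and 32 on all arrays of at least 1 group. Abca15, Abca17, Abcc12 and Abcd2 were well above background on no array.

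All signals below are on the log2 scale after quantile normalization, with each gene represented by its brightest probe, and a difference of 1 is a doubling. A gene was called at an adjusted p under 0.05 (limma, Benjamini-Hochberg over all probes) together with a fold change of 1.5 or more. In TBI against control rats 6 of the 40 ABC genes were called, against 5.18% of all genes. Abcb1b, Abcb4 and Abca4 rose (2.44% of all genes did), and Abcb1a, Abcc2 and Abcg8 fell (2.74%). In MASM + TBI against control rats 4 were called, against 2.9% of all genes, with Abcb1a, Abcb1b and Abcd2 higher (all genes 0.931%) and Abcc2 lower (1.97%). In MASM + TBI against TBI rats 2 were called, Abcb1a and Abcg8, both higher, against 0.864% of all genes called, 0.261% called higher and 0.603% called lower. After scaling to the 75th percentile the calls were 3 higher and 6 lower, 2 higher and 0 lower, and 4 higher and 0 lower. The first and second comparisons share the control rats, the first and the last share the TBI rats, and the second and the last share the MASM + TBI rats. At most 1 gene was called from any of subfamilies a, c, d and g in a comparison, and 0 from e and f (limma), where 0 also passed without adjustment or by the methods' t-test. The methods name only a simple t-test. The form computed here under that name was Welch's, which lets the variances of the groups differ. The median difference over the ABC genes was -0.09, 0.01 and 0.14 in the order above, and over all genes -0.01, 0.00 and 0.01.

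**Figure D1:**
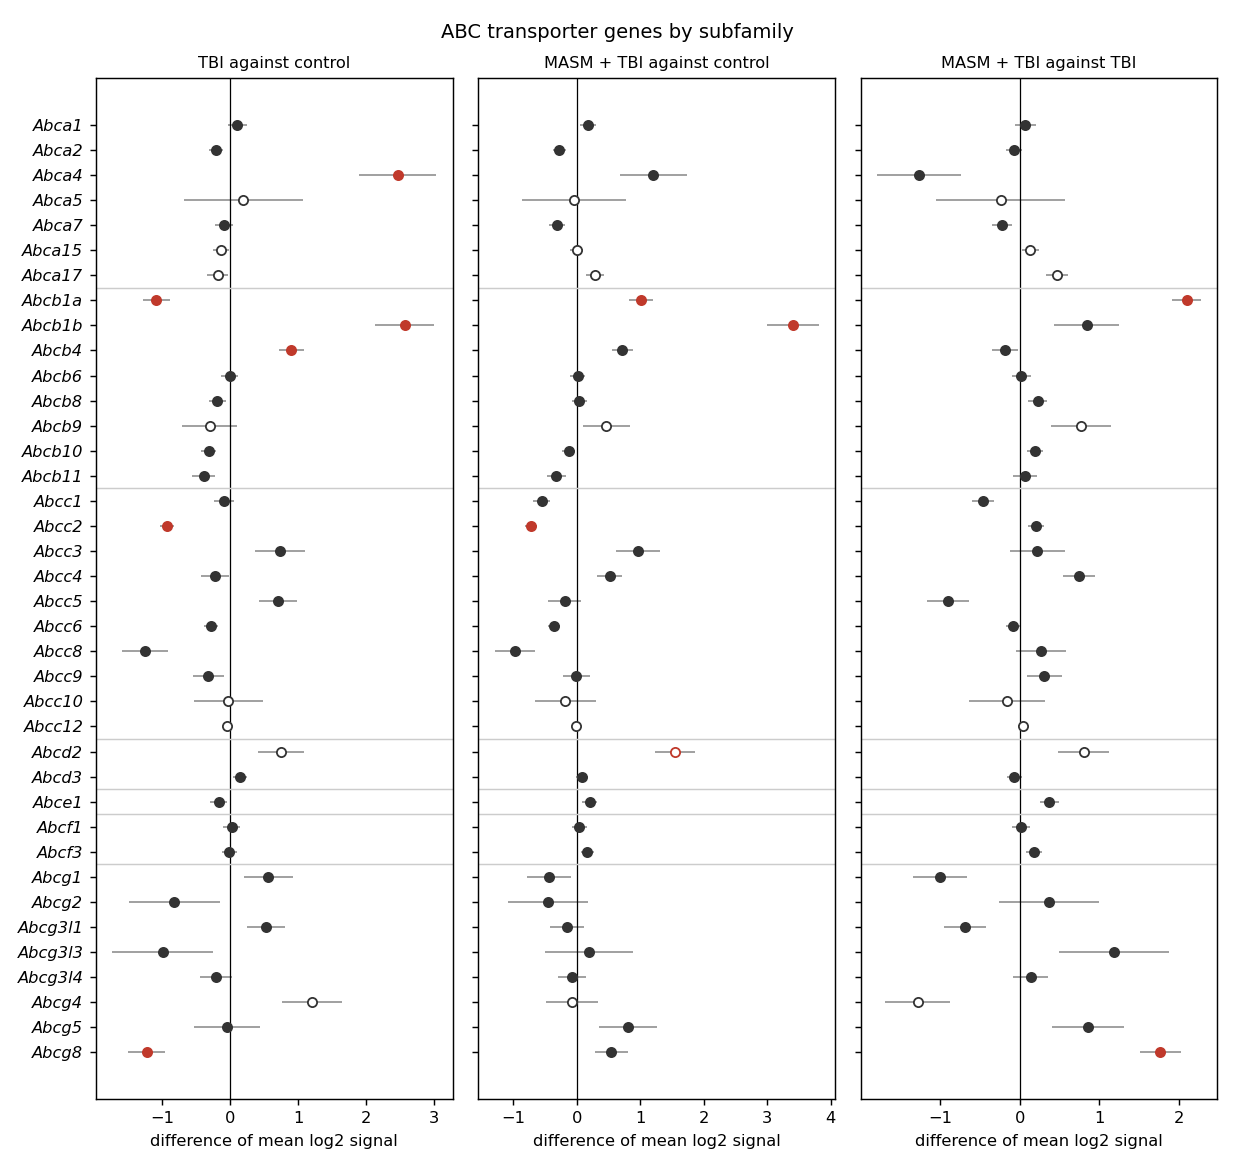
Difference of mean log2 signal for 38 of the 40 ABC genes (vertical axis, ordered by subfamily) in the 3 comparisons (panels), with bars of 1 standard error. Red marks the genes called, and open symbols mark genes well above background on all arrays of no group; the widest differences belong to Abcb1b (2.56 and 3.40) in both comparisons with control rats, while most members lie near 0.

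The drug pumps Abcb1a and Abcb1b, the pair of rodent genes for P-glycoprotein, which exports many hydrophobic drugs, differed between the groups in separate ways. Abcb1b read 5.08, 5.03 and 4.48 in the control rats, 7.24, 7.12 and 7.92 in the TBI rats, and 7.62, 9.18, 7.67 and 8.60 in the MASM + TBI rats. Every irradiated rat, with or without MASM, was above every control rat. The difference was 2.56 ± 0.43 (SE) for TBI against control, a fold of 5.91 (adjusted p = 0.0157). For MASM + TBI against control it was 3.40 ± 0.41, a fold of 10.6 (adjusted p = 0.0047). The MASM + TBI rats overlapped the TBI rats, with a difference of 0.84 and a 95% interval of -0.09 to 1.77 (adjusted p = 0.341). MASM + TBI rat 3, on the slide of the controls, was 2.80 above their mean. The TBI call was lost without control rat 3 (2.37, adjusted p = 0.0603) and after normexp background correction (0.98, adjusted p = 0.0557). That correction also shrank the difference of MASM + TBI from control rats, to 1.47, which was still called (adjusted p = 0.0103).

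Abcb1a, by contrast, was lower after TBI and higher after MASM + TBI. It read 4.86, 4.38 and 4.32 in the control rats, 3.11, 3.42 and 3.78 in the TBI rats, and 5.47, 5.42, 5.71 and 5.52 in the MASM + TBI rats. The 3 groups did not overlap, and the MASM + TBI rats lay close together at the top. The probe was dim, and was well above background on all control and MASM + TBI arrays and on 2 of 3 TBI arrays. The difference was -1.08 ± 0.20 for TBI against control (adjusted p = 0.0208) and 1.01 ± 0.18 for MASM + TBI against control (adjusted p = 0.0286). Between the irradiated groups it was 2.09 ± 0.18, a fold of 4.27 (adjusted p = 0.0033), and this call was kept whichever rat was left out. The TBI against control call was lost without TBI rat 2 (adjusted p = 0.0543), and the MASM + TBI against control call without control rat 2 or 3 or any of the 4 MASM + TBI rats (adjusted p from 0.0552 to 0.110). After normexp correction the 3 differences kept their direction but shrank to -0.15, 0.24 and 0.39. The difference of MASM + TBI rat 3 from the control mean of its own slide was 1.19.

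Abcb1a and Abcb1b are neighbours of Abcb4 on rat chromosome 4, and their sequences are much alike. Hybridisation of one paralog's RNA to the other's probe was not tested, and the probe sequences were not used here. For this pair, which moved in opposite directions after TBI, the 250 bases before 1 transcript start of each gene are given from RefSeq (GRCr8). Both annotated genes extend further upstream than these starts, so other starts exist whose windows were not examined, and every distance below counts from the start used. Both lie on the minus strand, at chr4:26397649-26397898 for Abcb1a and chr4:26280030-26280279 for Abcb1b, and are written 5′ to 3′. Capitals mark matches to known promoter motifs, searched on both strands. The CCAAT box was searched under its own letters and the GC box as GGGCGG. The TATA box was searched as TATAAA and the E-box as CACGTG. The AP-1 element was searched as TGAGTCA, the core of the antioxidant response element as TGACNNNGC, and the GATA motif as AGATAA.
Abcb1a: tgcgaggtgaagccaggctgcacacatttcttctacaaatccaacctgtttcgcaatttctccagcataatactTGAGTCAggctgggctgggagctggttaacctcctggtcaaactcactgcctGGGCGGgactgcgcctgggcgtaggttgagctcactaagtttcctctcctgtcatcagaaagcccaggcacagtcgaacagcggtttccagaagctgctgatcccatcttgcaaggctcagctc
Abcb1b: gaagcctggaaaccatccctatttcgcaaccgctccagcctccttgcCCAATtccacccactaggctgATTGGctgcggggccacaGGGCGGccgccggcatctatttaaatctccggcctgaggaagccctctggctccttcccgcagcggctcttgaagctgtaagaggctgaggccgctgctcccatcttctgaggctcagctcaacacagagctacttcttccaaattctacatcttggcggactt
Over 211 aligned positions 157 bases were the same, an identity of 74.4%. The Abcb1a window held TGAGTCA 176 bases before the start and a GC box 124 bases before it. The Abcb1b window held CCAAT in both orientations, 203 and 182 bases before the start, and a GC box 164 bases before it. TGAGTCA was found in 4.05% of all 33469 windows of this length, and in 1 of the 31 ABC genes that had a window. CCAAT was found in 34% of all windows and in 11 of the 31, and the GC box in 30.5% of all windows and in 22 of the 31. No marked motif overlapped another.

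Abcb4, the canalicular floppase that supplies phosphatidylcholine to bile, rose after TBI. Its signal was 9.01, 8.71 and 8.91 in the control rats, 9.44, 9.68 and 10.21 in the TBI rats, and 9.59, 9.54, 9.68 and 9.55 in the MASM + TBI rats. All 7 irradiated rats lay above all controls, and the MASM + TBI rats lay within the range of the TBI rats. The difference was 0.90 ± 0.18 for TBI against control (adjusted p = 0.0280). For MASM + TBI against control it was 0.71 ± 0.17, which did not pass (adjusted p = 0.0654). It was called with dim probes left out (adjusted p = 0.0393) and without TBI rat 1 or 3 (adjusted p = 0.0413 and 0.0125). The TBI call was lost without control rat 1, 2 or 3 or TBI rat 2 (adjusted p from 0.0562 to 0.0830).

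The conjugate pump Abcc2, which moves bilirubin glucuronides and glutathione conjugates into bile, fell in both irradiated groups. The control rats read 14.39, 14.19 and 14.30, the TBI rats 13.39, 13.29 and 13.40, and the MASM + TBI rats 13.39, 13.68, 13.69 and 13.49. Every irradiated rat was below every control rat, and the irradiated groups overlapped. The difference was -0.93 ± 0.10 for TBI against control, a fold of 1.91 (adjusted p = 0.0031). For MASM + TBI against control it was -0.73 ± 0.10, a fold of 1.65 (adjusted p = 0.0083). Both calls were kept whichever rat was left out. After scaling to the 75th percentile the second fell short (-0.60, adjusted p = 0.0709), and MASM + TBI rat 3 was likewise -0.60 from the control mean of its slide. Between the irradiated groups the difference was 0.21, with a 95% interval of -0.02 to 0.43 (adjusted p = 0.335). The 250 bases before the Abcc2 start, chr1:252613625-252613874 on the plus strand (RefSeq, GRCr8), are shown because this was the ABC gene with the smallest adjusted p of the first comparison.
Abcc2: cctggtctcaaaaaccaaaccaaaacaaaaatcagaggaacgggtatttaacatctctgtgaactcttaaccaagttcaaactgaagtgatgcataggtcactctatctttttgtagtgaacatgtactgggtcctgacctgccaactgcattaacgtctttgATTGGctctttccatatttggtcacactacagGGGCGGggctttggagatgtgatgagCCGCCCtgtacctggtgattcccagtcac
An inverted CCAAT stood 87 bases before the start, and GC boxes stood 55 and 29 bases before it. The letters TGACNNNGC, present in 10.1% of all windows, were not found in this one.

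**Figure D2:**
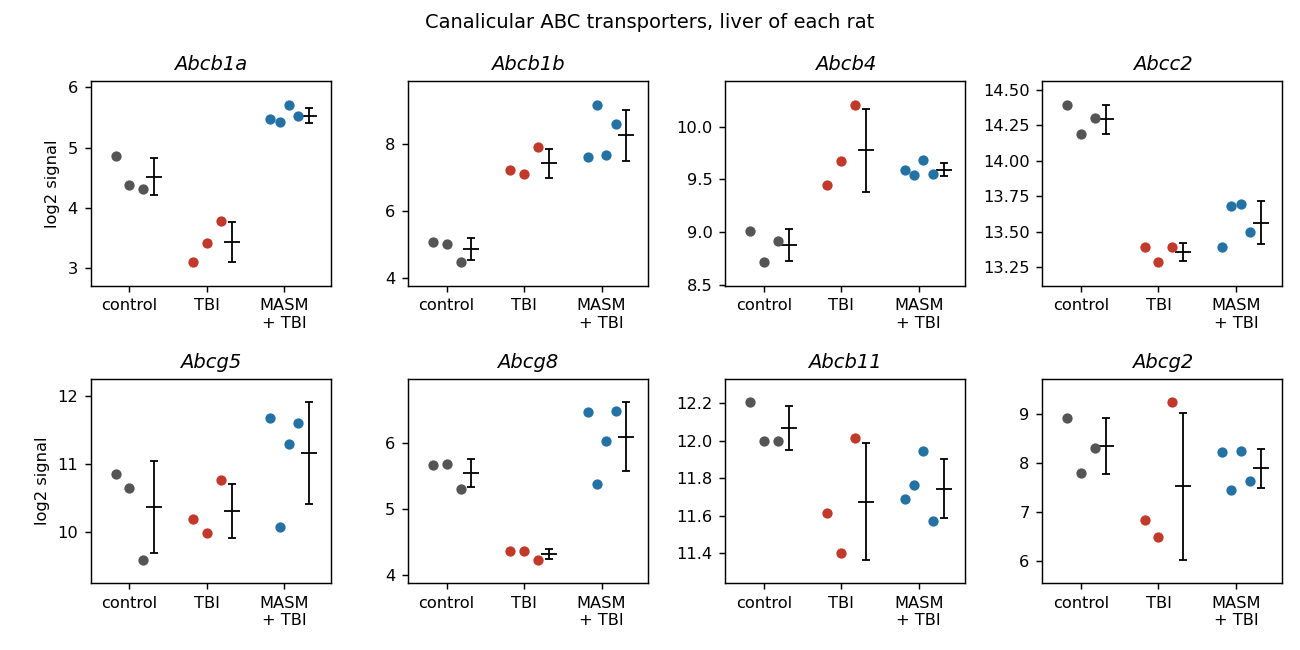
Log2 signal (vertical axis, a scale of its own in each panel) of 8 canalicular transporters in each rat (points), with the group mean and SD as bars beside the points. Abcb1b and Abcb4 are higher and Abcc2 lower in every irradiated rat than in every control rat, while Abcb1a and Abcg8 are lowest in the TBI rats.

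Abcg5 and Abcg8 encode the partners of the canalicular sterol exporter, which works only as the pair. Abcg8 read 5.66, 5.68 and 5.31 in the control rats, 4.37, 4.36 and 4.24 in the TBI rats, and 6.47, 5.37, 6.03 and 6.48 in the MASM + TBI rats. The TBI rats lay below all other rats, and MASM + TBI rat 2 lay among the controls. The difference was -1.23 ± 0.28 for TBI against control (adjusted p = 0.0408) and 1.77 ± 0.26 for MASM + TBI against TBI, a fold of 3.40 (adjusted p = 0.0176). Against control rats the MASM + TBI rats differed by 0.54 (adjusted p = 0.343). The call between the irradiated groups was lost without TBI rat 2 or MASM + TBI rat 1 (both with an adjusted p of 0.052). The TBI against control call was lost when any control rat, any TBI rat or MASM + TBI rat 3 was left out (adjusted p from 0.0527 to 0.108). After normexp correction these differences were -0.25 and 0.45, and with the median of the 2 Abcg8 probes -0.61 and 1.17, and none of them passed. On none of the arrays was the second probe well above background.

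The signal of Abcg5 was 10.85, 10.65 and 9.58 in the control rats, 10.19, 9.98 and 10.75 in the TBI rats, and 11.68, 10.06, 11.29 and 11.61 in the MASM + TBI rats. MASM + TBI rats 1, 3 and 4 were above all other rats, as they also were for Abcg8, while rat 2 was not. No difference passed. For TBI against control it was -0.05, with a 95% interval of -1.16 to 1.06, and for MASM + TBI against TBI it was 0.85, with an interval of -0.18 to 1.89 (adjusted p = 0.391). The start sites of the genes face away from each other across 205 bases, and these bases are given from RefSeq on the plus strand, chr6:15717731-15717935 (GRCr8), with the same motifs in capitals.
Abcg5 and Abcg8: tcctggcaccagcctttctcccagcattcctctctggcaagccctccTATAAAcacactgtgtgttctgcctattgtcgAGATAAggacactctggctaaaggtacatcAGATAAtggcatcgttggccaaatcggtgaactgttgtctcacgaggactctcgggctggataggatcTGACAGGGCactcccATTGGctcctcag
The run holds 1 TATA box, 2 GATA motifs, 1 core of the antioxidant response element and 1 inverted CCAAT box. Of all windows 12.9% held the TATA box and 10.3% the GATA motif, and each was found in 3 of the 31 ABC windows.

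The remaining canalicular pumps were not called. The bile salt export pump Abcb11 read 12.21, 12.00 and 12.00 in the control rats, 11.62, 11.40 and 12.01 in the TBI rats, and 11.69, 11.77, 11.95 and 11.58 in the MASM + TBI rats. TBI rat 3 lay within the controls and the other irradiated rats lay below them, and the differences from control rats were -0.39 (adjusted p = 0.195) and -0.32 (adjusted p = 0.337). Abcg2, which exports sulfated conjugates, urate and drugs, read 8.92, 7.79 and 8.30 in the control rats, 6.83, 6.49 and 9.23 in the TBI rats, and 8.22, 7.44, 8.24 and 7.63 in the MASM + TBI rats. TBI rats 1 and 2 were the lowest of all and TBI rat 3 the highest of all. The difference for TBI against control was -0.82 ± 0.67 (adjusted p = 0.495), and without TBI rat 3 it became -1.68 and was called (adjusted p = 0.0429).

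The basolateral conjugate pumps Abcc3 and Abcc4, which return bile salt and drug conjugates to the blood, were not called. Abcc3 read 5.56, 5.46 and 4.99 in the control rats, 5.15, 6.69 and 6.38 in the TBI rats, and 6.60, 6.26, 6.23 and 6.07 in the MASM + TBI rats. All 4 MASM + TBI rats were above the controls, and TBI rat 1 was not. The difference from control rats was 0.74 ± 0.37 for TBI (adjusted p = 0.269) and 0.96 ± 0.34 for MASM + TBI (adjusted p = 0.198). Without TBI rat 1 both were called (1.20, adjusted p = 0.0282, and 0.96, adjusted p = 0.0409). Abcc4 read 5.41, 5.48 and 5.21 in the control rats, 5.19, 4.97 and 5.27 in the TBI rats, and 6.13, 5.83, 6.21 and 5.38 in the MASM + TBI rats. All MASM + TBI rats lay above the TBI rats, by 0.75 ± 0.20 (adjusted p = 0.119), and without MASM + TBI rat 4 this difference was called (0.91, adjusted p = 0.0388). Its second probe gave 0.46 for the same comparison (adjusted p = 0.248). Abcc6, a basolateral protein of hepatocytes whose loss causes ectopic calcification, fell short as well, with -0.28 and -0.36 against control rats (adjusted p = 0.155 and 0.0965).

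Other members of subfamily c have their known roles outside the canaliculus. Abcc1, a widely expressed exporter of glutathione conjugates, read 8.22, 8.54 and 8.29 in the control rats, 7.98, 8.46 and 8.33 in the TBI rats, and 7.79, 7.93, 7.80 and 7.66 in the MASM + TBI rats. The MASM + TBI rats were below all other rats, and the difference from control rats was -0.55 ± 0.13 (adjusted p = 0.0703). Without TBI rat 1 the difference between the irradiated groups was called (-0.60, adjusted p = 0.0461). Abcc5, an exporter of cyclic nucleotides, read 8.93, 8.96 and 8.76 in the control rats, 8.83, 10.12 and 9.82 in the TBI rats, and 8.71, 8.78, 8.70 and 8.58 in the MASM + TBI rats. TBI rats 2 and 3 stood above all others, and TBI rat 1 did not. The difference was 0.71 ± 0.28 for TBI against control (adjusted p = 0.175) and -0.90 ± 0.26 for MASM + TBI against TBI (adjusted p = 0.142), and without TBI rat 1 both were called (1.09, adjusted p = 0.0054, and -1.28, adjusted p = 0.0036). Abcc8, the sulfonylurea receptor known from pancreatic beta cells, read 7.53, 6.73 and 7.65 in the control rats, 6.24, 5.41 and 6.51 in the TBI rats, and 6.44, 5.96, 6.63 and 6.27 in the MASM + TBI rats. All irradiated rats lay below the controls, and neither difference, -1.25 (adjusted p = 0.0711) and -0.98 (adjusted p = 0.154), passed. The first was called with dim probes left out (adjusted p = 0.0432), after scaling to the 75th percentile (adjusted p = 0.0368) and after normexp correction (-0.60, adjusted p = 0.0454).

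The cholesterol exporters Abca1 and Abcg1, both classical targets of the liver X receptors, were not called. Abca1, which loads lipid onto apolipoprotein A-I, differed by 0.11 between TBI and control rats, with a 95% interval of -0.21 to 0.43, and by 0.07 between the irradiated groups, with an interval of -0.23 to 0.37. Abcg1, which is abundant in macrophages, read 10.39, 11.06 and 10.81 in the control rats, 10.43, 11.70 and 11.81 in the TBI rats, and 10.67, 10.35, 10.11 and 10.12 in the MASM + TBI rats. TBI rats 2 and 3 were the highest of all rats, and TBI rat 1 lay within the other groups. For MASM + TBI against TBI the difference was -1.0 ± 0.34 (adjusted p = 0.188), and without TBI rat 1 it was called (-1.44, adjusted p = 0.0221). The summed linear signal of 5 Kupffer cell and macrophage markers, all with a probe, was 46173, 86434 and 63465 in the TBI rats and 36721 to 45714 in the MASM + TBI rats, against 46868 to 66439 in the control rats. TBI rat 1 was the lowest of its group here too. It was also the lowest for Clec4f, by far the brightest of the 5, and for Cd68, Marco and Adgre1. For Cd163 it was not, with 8.12, 8.22 and 7.65 in the TBI rats. The part of the macrophage markers in the Abcg1 and Abcc5 signals was not tested.

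**Figure D3:**
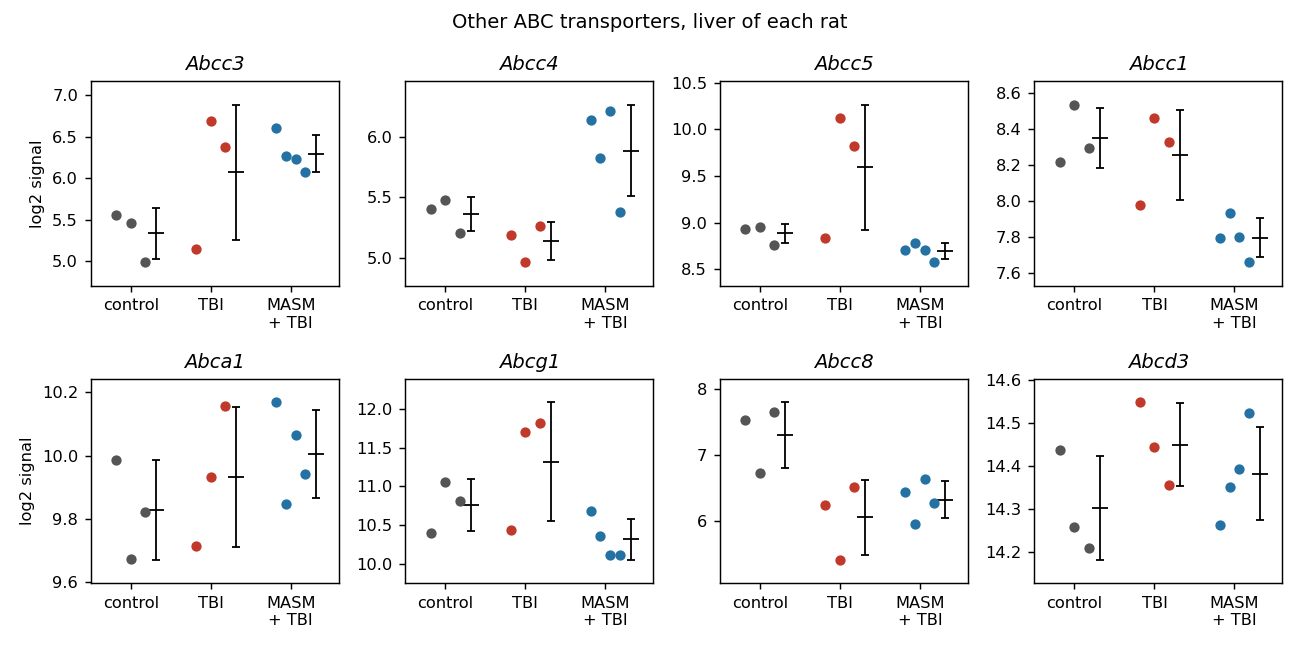
Log2 signal (vertical axis, a scale of its own in each panel) of 8 further ABC genes in each rat (points), with the group mean and SD beside the points. TBI rat 1, the leftmost point of its group, lies apart from the other TBI rats for Abcc3, Abcc5 and Abcg1, and none of the 8 genes was called.

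In the peroxisomal subfamily d, Abcd3, which imports branched and dicarboxylic acyl chains, differed by 0.15 between TBI and control rats, with a 95% interval of -0.08 to 0.38. Abcd2, a peroxisomal transporter of very long acyl chains, was called for MASM + TBI against control rats (adjusted p = 0.0435), but its probe was well above background on none of the 10 arrays, so no fold is given. That call was also lost in 14 of 20 other settings.

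Abca4, the lipid flippase of photoreceptors, was called in TBI against control rats. It read 3.83, 2.05 and 3.73 in the control rats, 5.90, 5.53 and 5.57 in the TBI rats, and 3.31, 4.94, 4.31 and 5.06 in the MASM + TBI rats. It was well above background on 0 control arrays, all 3 TBI arrays and 2 MASM + TBI arrays, and the TBI rats were at least 3.44-fold higher than the control rats (adjusted p = 0.0434). The bound holds for the quantile normalized signal of this probe, since after normexp correction the difference was 0.44 on the log2 scale, a fold under the threshold, and with the median of both Abca4 probes 1.31 (adjusted p = 0.189). It sets the TBI mean against, for each control array, the higher of its own signal and the lowest signal well above background. A second Abca4 probe, well above background on no control or TBI array, gave a difference of 0.16, with a 95% interval of -1.28 to 1.61. The call was lost in 14 of 20 other settings, among them leaving out any control or TBI rat (adjusted p from 0.0641 to 0.0942) or MASM + TBI rat 2, 3 or 4 (adjusted p from 0.0529 to 0.0583). Abcg3l3, one of a group of closely related rodent genes whose probes may share RNA, was among the highest estimates for MASM + TBI against TBI, 1.19 ± 0.69 (adjusted p = 0.434). Its MASM + TBI rats were split, at 5.85, 6.63, 4.03 and 3.87.

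Of the 19 members not named for a call, a role in liver or an extreme estimate, 0 were called in any comparison (limma, all genes 5.18%, 2.9% and 0.864%). At an unadjusted p under 0.05 with the same fold, 1, 0 and 2 of them passed by limma (all genes 13.1%, 9.18% and 7.82%). By the methods' t-test 0, 0 and 0 of them passed (all genes 7.43%, 6.75% and 3.37%). Over 11 of them, each well above background on all arrays of at least 1 group, the differences ran from -0.32 (Abcc9) to 0.53 (Abcg3l1) for TBI against control, from -0.31 (Abca7) to 0.20 (Abce1) for MASM + TBI against control and from -0.69 (Abcg3l1) to 0.37 (Abce1) for MASM + TBI against TBI. The differences of the translation factors by their brightest probes were 0.02 for Abcf1, -0.01 for Abcf3 and -0.17 for the ribosome recycling factor Abce1 in TBI against control rats. The second Abce1 probe gave 0.38 (adjusted p = 0.196). Of the other two Abcf1 probes, one gave 0.05 (adjusted p = 0.863), near the brightest probe, and the other 0.39, with groups that did not overlap (adjusted p = 0.156).

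At the study's threshold, an unadjusted p under 0.05 with the same fold, 9 ABC genes passed for TBI against control (limma, all genes 13.1%), 7 for MASM + TBI against control (9.18%) and 9 for MASM + TBI against TBI (7.82%). With the methods' t-test, in its Welch form, in place of limma the numbers were 8 (7.43%), 6 (6.75%) and 4 (3.37%). The groups did not overlap for 12, 13 and 13 of the 40 genes, and for 30.6%, 22.3% and 17.2% of all genes.

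The wider pathway was followed through lists of related genes, whose tests were not repeated under other settings or with a rat left out. Of 15 regulators of ABC genes, 12 had a probe, and 3 were called in TBI against control rats, against 5.18% of all genes. Nfe2l2, the oxidant-sensing factor known to induce Abcc2 and Abcc3, read 11.43, 11.20 and 11.26 in the control rats, 12.59, 12.18 and 12.50 in the TBI rats, and 12.34, 12.26, 12.16 and 12.48 in the MASM + TBI rats. All 7 irradiated rats were above the controls, by 1.13 ± 0.13 (adjusted p = 0.0037) and 1.01 ± 0.12 (adjusted p = 0.0053). The bile acid receptor gene Nr1h4 rose after TBI by 0.66 (adjusted p = 0.0431), and the xenobiotic receptor gene Nr1i3 fell by 0.98 (adjusted p = 0.0327). Nr0b2, a target and partner of these receptors, was 1.57 lower in TBI than in control rats, without passing (adjusted p = 0.0636). Nr1i2, the pregnane X receptor gene, had an adjusted p of 0.0145 with a fold under the threshold (-0.56). Of the 12 regulators, 1 was called in MASM + TBI against control rats (all genes 2.9%), Nfe2l2. In MASM + TBI against TBI rats 0 were called (all genes 0.864%). There 1 passed without adjustment by limma (all genes 7.82%) and 1 by the methods' t-test (all genes 3.37%).

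Over 6 other Nfe2l2 targets the median difference in TBI against control rats was 0.38 (all genes -0.01). No target with a higher mean was called, and Gclc, Hmox1 and Txnrd1 overlapped the control rats. Srxn1, which repairs peroxiredoxins, differed by 0.49 with an adjusted p of 0.0374 but a fold under the threshold, and Nqo1, a quinone reductase, by 1.05 (adjusted p = 0.116). In TBI against control rats 1 target was called (all genes 5.18%) and in MASM + TBI against TBI rats 1 (all genes 0.864%), both times Gclm, a subunit of the enzyme that begins glutathione synthesis. Gclm read 4.76, 4.52 and 4.39 in the control rats, 2.35, 1.71 and 2.91 in the TBI rats, and 4.98, 4.83, 4.42 and 5.24 in the MASM + TBI rats. The TBI rats lay below all others, and the probe was well above background on 1 of the 3 TBI arrays. Its TBI mean of 2.32 lay below the lowest signal counted as well above background on these arrays, so the size of the differences is not given, and their adjusted p was 0.0070 for TBI against control and 0.0068 for MASM + TBI against TBI. Of 5 liver X receptor targets with a probe, 1 was called, Scd, a desaturase of fatty acid synthesis, which fell by 3.67 in MASM + TBI against control rats (adjusted p = 0.0356, all genes 2.9%). Scd was also 2.46 lower in TBI against control rats, without passing (adjusted p = 0.102). Between the irradiated groups its difference was -1.21 (adjusted p = 0.441), and the control rats were spread from 11.76 to 14.19. Of 11 partners in bile and lipid transport, among them uptake carriers and apolipoproteins, 0 were called in any comparison (all genes 5.18%, 2.9% and 0.864%). At the unadjusted threshold 1, 1 and 0 passed by limma (all genes 13.1%, 9.18% and 7.82%). By the methods' t-test 0 passed in each (all genes 7.43%, 6.75% and 3.37%). Of the ABC proteins with other symbols, Tap1, Tap2 and Cftr, 0 were called (all genes 5.18%, 2.9% and 0.864%). At the unadjusted threshold 2, 1 and 1 passed by limma (all genes 13.1%, 9.18% and 7.82%). By the methods' t-test 1, 0 and 1 passed (all genes 7.43%, 6.75% and 3.37%). Cftr, which passed in the first and the last comparison, was well above background on 0 control arrays, 2 TBI arrays and 0 MASM + TBI arrays. Tap1, which brings peptides to class I molecules, was below all controls in every irradiated rat, with -0.73 (adjusted p = 0.0959) and -0.93 (adjusted p = 0.0536).

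**Figure D4:**
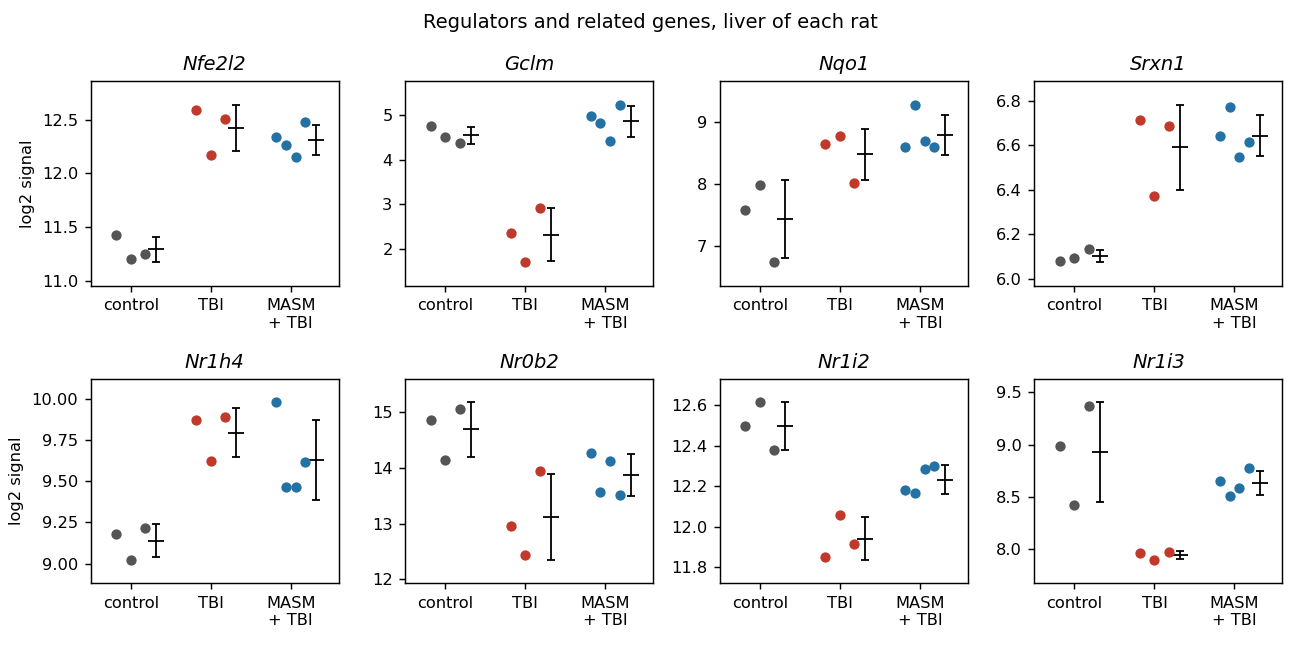
Log2 signal (vertical axis, a scale of its own in each panel) of 4 regulators (Nfe2l2, Nr1h4, Nr1i2 and Nr1i3), of Nr0b2, a target and partner of these receptors, and of the Nfe2l2 targets Gclm, Nqo1 and Srxn1 in each rat (points), with the group mean and SD beside the points. Nfe2l2 is higher in every irradiated rat than in every control rat, while Gclm is lowest in the TBI rats.

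**Figure D5:**
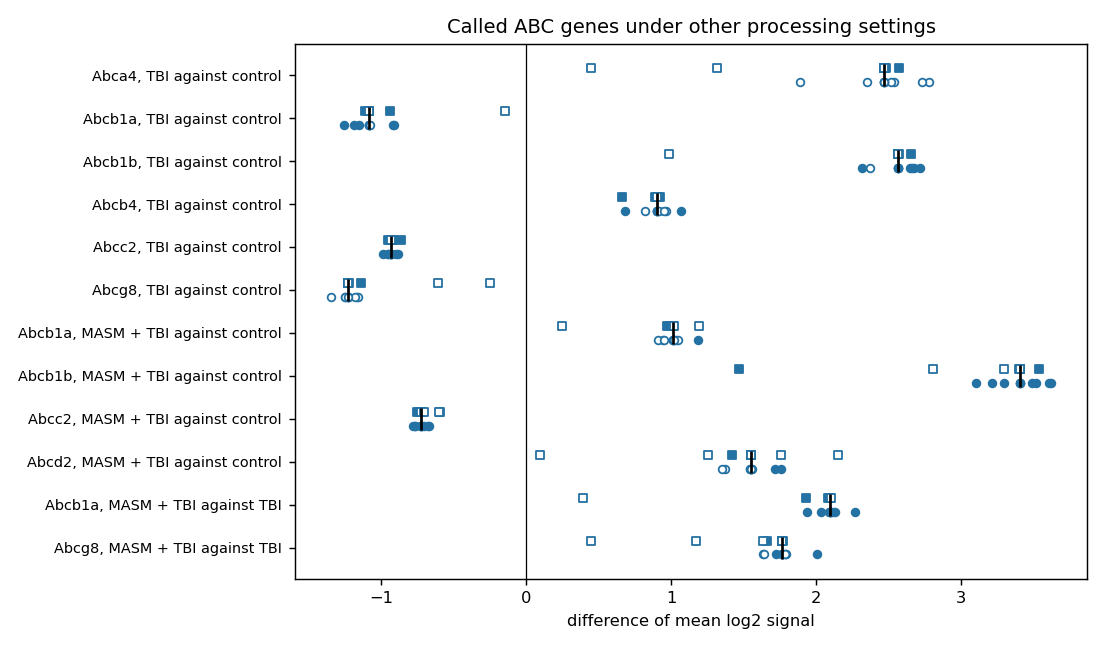
Difference of mean log2 signal (horizontal axis) for each ABC gene and comparison that was called (vertical axis), with a black tick for the value given above, squares for other processing settings and circles for fits with 1 rat left out. Filled symbols passed the threshold and open symbols did not; no value crosses 0, and the calls of Abcc2 in both comparisons with control rats pass in every fit with a rat left out.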

How the data were processed

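Liver RNA of 10 rats (3 control, 3 TBI and 4 MASM + TBI) was labelled with Cy3 and hybridised to Agilent whole rat genome arrays, 1 per rat. The authors deposited the processed intensity of each spot from Feature Extraction 10.7.3.1, background-subtracted, linear and not normalized between arrays. The deposited value table held the same intensity values (difference of 0). Control spots and 76 to 112 outlier spots per array were left out. The log2 of each intensity was taken, and the arrays were then quantile normalized, as in the study's methods, and averaged per probe. Symbols came through RefSeq accessions (16968 probes matched). The labels do not say whether replicates are separate litters or cages. The number of arrays limits the precision.

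A mean per group was fitted to all 10 arrays with limma 3.58.1 in R 4.3.3 (prior degrees of freedom 1.43), with Benjamini-Hochberg adjustment over all 40945 probes, and tested on simulated data. Named were the called genes, a list of liver pumps and lipid transporters, and the 3 highest and 3 lowest estimates of each comparison among genes well above background in at least 1 group. Abcd4, on that list, was matched to no probe by accession. The single values of 2 members are not reported here. The members and lists were chosen with earlier results of these data known. Promoter windows, with 1 transcript start a gene, and gene positions came from RefSeq (GRCr8). The array predates this assembly, and no probe positions are given. Identity came from an alignment with Biopython 1.88. Plots were drawn with matplotlib 3.10.9 in Python 3.11.15. Alternatives were 75th percentile scaling, normexp (offset 50) on median signals, the deposited table, leaving out dim probes, the median of a gene's probes, 2 groups only, a trended and robust prior, the methods' t-test, replicate and slide blocks, and each rat left out.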

Additional observations from a re-analysis of the deposited data

Results flagged for a closer look

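In the MASM + TBI group, the only group of 4 rats, 6 of the 40 ABC genes had a rat that stood apart from the other 3 by Dixon's criterion, which chance alone passes in about 1 of 20 groups. None of the 6 was called in a comparison.

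Abca2, a lipid transporter best known from oligodendrocytes, read 11.25 in rat 1, below 11.41 to 11.43 in the others. In rat 2, Abcb9, a lysosomal peptide transporter, read 3.16 against 4.42 to 4.57, Abca5 read 3.01 against 3.60 to 3.68, and Abcg4 read 2.40 against 1.46 to 1.47. In rat 3, the array on the slide of the controls, Abcb8, a mitochondrial transporter, read 7.09 against 6.74 to 6.79 and Abca15 read 1.96 against 1.63 to 1.68. The Abca5, Abca15 and Abcg4 probes were not well above background on any MASM + TBI array.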

How the results depend on the processing

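Of the ABC genes 6, 4 and 2 were called in TBI against control, MASM + TBI against control and MASM + TBI against TBI rats. The deposited table and the trended, robust prior gave the same counts. Scaling to the 75th percentile gave 9, 2 and 4, normexp 3, 2 and 0, leaving out dim probes 7, 4 and 2, the median of a gene's probes 4, 4 and 1, a model of only the 2 groups compared 3, 4 and 1, and slide as a random block 8, 5 and 3. The methods' t-test, in its Welch form and with adjustment, called 0, 0 and 0. With slide as a fixed block, which could be fitted for MASM + TBI against control only, 0 were called (7 unadjusted). Leaving out each rat gave 2 to 7, 2 to 5 and 1 to 6. Each highest count came without TBI rat 1. The lowest came in the first comparison without control rat 3 or TBI rat 2, in the second without control rat 2 or 3 or MASM + TBI rat 1 or 3, and in the last without TBI rat 2 or MASM + TBI rat 1. Scaling to the 75th percentile moved the share of rises among called probes from 44.6% to 23.2% in TBI against control and from 55.1% to 82.5% in MASM + TBI against TBI, and normexp moved the latter to 86.1%. No called gene changed direction under any of these settings. The offset of 50 that normexp adds to each linear signal narrows log2 differences of dim probes by arithmetic. Its part in the lost calls, and the cause of the other lost and gained calls, was not tested.

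Replicate numbers did not pair the rats. The correlation of deviations between same-numbered rats ran from -0.13 to 0.17 over 9 pairs. With the replicate number as a block, 2, 1 and 0 ABC genes were called, Abcc2 and Abcc8 in the first comparison and Abcc8 in the second (9, 7 and 9 unadjusted). Dim probes, such as those of Abcb1a, Abcg8 and Abca4, are limited by the small distance of signal from background.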
